A study of Mus musculus with 4 samples.

Results

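The aryl hydrocarbon receptor (AHR) pathway was described through 7 genes of the 27179 in the count table: the receptor gene Ahr, its partner Arnt, its repressor Ahrr, and the target genes Cyp1a1, Cyp1b1, Tiparp and Nqo1. They were chosen by symbol, with the diet difference of Ahrr already known, so their own diet differences are a description, and calls on them are counted only beside the share of all genes called. RNA was sequenced from group 2 innate lymphoid cells (ILC2s), tissue lymphocytes that release type 2 cytokines, isolated by sorting from colons of C57BL/6J mice. Of the 4 mice, 2 ate a control diet and 2 a diet high in fiber, and each gave 1 library. The labels give neither the age or sex of the mice, the kind of fiber, the time on the diet, the sort gates nor the number of cells.

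AHR is a ligand-activated transcription factor that waits in the cytosol with chaperones. Plant indoles, microbial tryptophan metabolites and some pollutants bind it. It then enters the nucleus, pairs with ARNT and binds DNA at xenobiotic response elements. The Cyp1 enzymes break its ligands down, TIPARP modifies the receptor with ADP-ribose and limits its activity, and AHRR, itself a target gene, competes for ARNT and DNA. In the gut the pathway is known from intraepithelial lymphocytes, ILC3s and epithelium, and colonic ILC2s are also known to carry the receptor.

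Library totals ranged from 20253987 to 30406730 counts, and 11841 genes passed the filter on low counts and entered the test. All 11 ILC2 markers on the list had counts, with a summed level of 10310 to 14421 CPM (counts scaled to equal library size). High-fiber library 2 stood apart on the first principal component, at 116 against -59.3 to -10.0 for the other libraries, and this component held 45.8% of the variance. Since these were bulk samples, fewer cells that carry a transcript and less of it per cell cannot be told apart.

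The promoters of 3 members are shown because they set Ahrr, the member whose diets lay apart, beside the most abundant target, Tiparp, and the classical target Cyp1a1, which held 0 counts in every library. Each is the RefSeq window from 250 bases before to 50 bases after the annotated start (GRCm38.p6), with capitals at the core of the AHR response element, GCGTG on the gene's strand or its complement CACGC. The windows lie at chr13:74292282-74292581 for Ahrr (minus strand), chr3:65528197-65528496 for Tiparp (plus strand) and chr9:57697363-57697662 for Cyp1a1 (plus strand).
Ahrr: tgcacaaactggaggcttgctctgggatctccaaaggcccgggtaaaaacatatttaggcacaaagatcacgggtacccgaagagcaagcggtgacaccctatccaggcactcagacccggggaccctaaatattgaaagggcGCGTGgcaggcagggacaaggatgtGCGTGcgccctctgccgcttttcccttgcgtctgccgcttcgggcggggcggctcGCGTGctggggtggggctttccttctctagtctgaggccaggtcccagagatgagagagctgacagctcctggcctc
Tiparp: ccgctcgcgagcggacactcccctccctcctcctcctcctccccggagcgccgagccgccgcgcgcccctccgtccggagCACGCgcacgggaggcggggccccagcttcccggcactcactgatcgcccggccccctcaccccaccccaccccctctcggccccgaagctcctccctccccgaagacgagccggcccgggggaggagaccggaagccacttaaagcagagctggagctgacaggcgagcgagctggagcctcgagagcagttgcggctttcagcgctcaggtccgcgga
Cyp1a1: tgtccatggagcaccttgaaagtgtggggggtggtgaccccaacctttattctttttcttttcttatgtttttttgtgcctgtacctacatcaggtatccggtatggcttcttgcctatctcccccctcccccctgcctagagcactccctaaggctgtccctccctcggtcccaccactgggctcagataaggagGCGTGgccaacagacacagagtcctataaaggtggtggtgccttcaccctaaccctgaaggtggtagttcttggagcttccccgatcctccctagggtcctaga

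The Ahrr window held 3 core motifs, all on the gene's strand, which begin 107, 82 and 27 bases before the start. Tiparp held 1, on the other strand and 170 bases before the start, and Cyp1a1 held 1 at 54 bases before its start. The Cyp1a1 window lies inside the gene's RefSeq span (57687928 to 57703824), not at the first base of that span. Motifs outside the windows were not counted, so these numbers do not rank the genes by AHR sites. Arnt and Cyp1b1 held 1 each and Nqo1 held 0, so 5 of the 6 members with a window carried the core. Over both strands, 32.4% of 32851 RefSeq windows of the same length held at least 1 core and 3.91% held 3 or more. The longer motif TNGCGTG, which contains the core, was in 1 of these 6 windows, that of Ahrr, and in 5.07% of all windows. The share of G and C in the members' windows ran from 53.7% for Nqo1 to 73.7% for Tiparp, against a median of 52.7% over all windows. Nqo1 and Cyp1a1, at 54.0%, lay near that median. A match of letters is not a measured binding site.

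**Figure D1:**
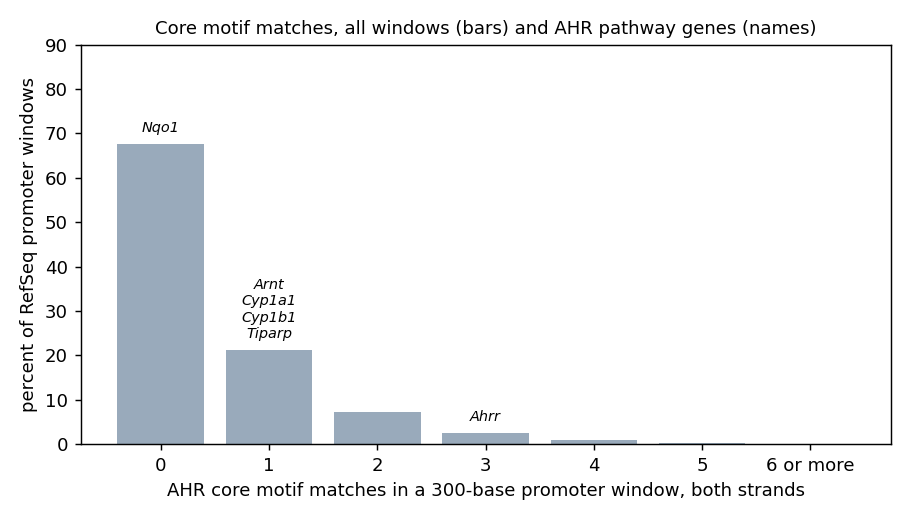
Bars give the percent of 32851 RefSeq promoter windows of 300 bases by the number of AHR core motifs on either strand. Ahrr stands at 3 matches, Arnt, Cyp1a1, Cyp1b1 and Tiparp at 1 and Nqo1 at 0.

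Transcripts of the receptor were plentiful on both diets. Ahr (NCBI gene 11622, chromosome 12 from 35497979 to 35534989, GRCm38) was at 323 and 320 CPM in control mice 1 and 2, against 406 and 301 CPM in high-fiber mice 1 and 2. The groups overlapped, since the high-fiber libraries lay on either side of both control libraries. The mean was 322 ± 2.10 CPM for control and 353 ± 74.1 CPM for high-fiber mice (SD, n = 2 each), a log2 fold change of 0.14 ± 0.23 (SE) for high-fiber over control. Without high-fiber library 1 its sign turned, to -0.070, so no direction is given for Ahr. By mean level Ahr stood at percentile 96.1 of the tested genes.

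Arnt (NCBI gene 11863, chromosome 3 from 95434367 to 95497240), whose product also partners the hypoxia factors, was at 58.2 and 44.3 CPM in control mice 1 and 2, against 65.4 and 53.7 CPM in high-fiber mice 1 and 2. These groups overlapped too, and the log2 fold change was 0.21 ± 0.30. Per kilobase of exon, which allows genes to be compared, Ahr was at 52.2 CPM per kb on the control and 57.3 CPM per kb on the high-fiber diet. Arnt was at 6.40 and 7.43 CPM per kb, so the receptor transcript exceeded that of its partner on both diets. Ahr counts per Arnt count ran from 5.55 to 7.23 over the 4 libraries, before any correction for length.

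The repressor was the one member whose diets lay apart. Ahrr (NCBI gene 11624, chromosome 13 from 74211118 to 74292331) had 408 and 302 counts in control mice 1 and 2, but 0 and 12 counts in high-fiber mice 1 and 2. In CPM these were 13.5 and 14.4 on the control diet and 0 and 0.59 on the high-fiber diet. The control libraries were nearly equal, and both exceeded either high-fiber library. The lower control library was 22.9-fold above the higher high-fiber library. Means were 13.9 ± 0.62 and 0.29 ± 0.42 CPM (SD, n = 2 each), with a fitted log2 fold change of -5.80 ± 1.15 (SE).

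Pooled over libraries, the 710 control and 12 high-fiber counts gave a scaled ratio of 56.9 for control over high-fiber, with an exact 95% binomial interval of 32.4 to 111. This interval treats every read as independent and leaves out the spread between mice. Reads copied by PCR are not independent molecules, so it is too narrow even for counting error. Without high-fiber library 2, the library that stood apart, the high-fiber level was 0. If reads were independent, a 0 in high-fiber library 1 would allow up to 3 counts, and the control mean was 134-fold above that level. Since PCR copies are not independent, this is no firm lower bound. Against high-fiber library 2 alone the control mean was 23.7-fold higher. On a per-length scale Ahrr was a low transcript even on the control diet, at 1.48 CPM per kb.

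Of the 7 members 4 entered the test, and Ahrr passed the filter only through the control libraries, where it was high. The quasi-likelihood test of edgeR, adjusted by Benjamini-Hochberg over all genes, called 0 of the 4, and 0.0338% of all tested genes. DESeq2 called 1 of the 4, Ahrr, where it called 1.91% of genes, and lost that call without control library 1 or control library 2. The diet groups of 1 of the 4 did not overlap in the lower direction, where 19.6% of tested genes were lower in that way. Since Ahrr was chosen on this contrast, nothing is read from these counts.

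A count of 0 was rare among genes with at least the lower control count of Ahrr, a set with no upper limit on counts. By mean level Ahrr stood at percentile 29.8 of the tested genes. How rare a 0 was among genes at counts near its own was not examined. Of 6647 genes with at least 302 counts in both control libraries, 4 were at 0 in at least 1 high-fiber library. Ahrr alone among them also held 12 counts or fewer in both high-fiber libraries. In the opposite direction, 6275 genes had at least 302 counts in both high-fiber libraries, and 2 of them were at 0 in a control library with 12 counts or fewer in both. These limits were taken from the counts of Ahrr after they were seen, so they describe its place in the table and test nothing.

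**Figure D2:**
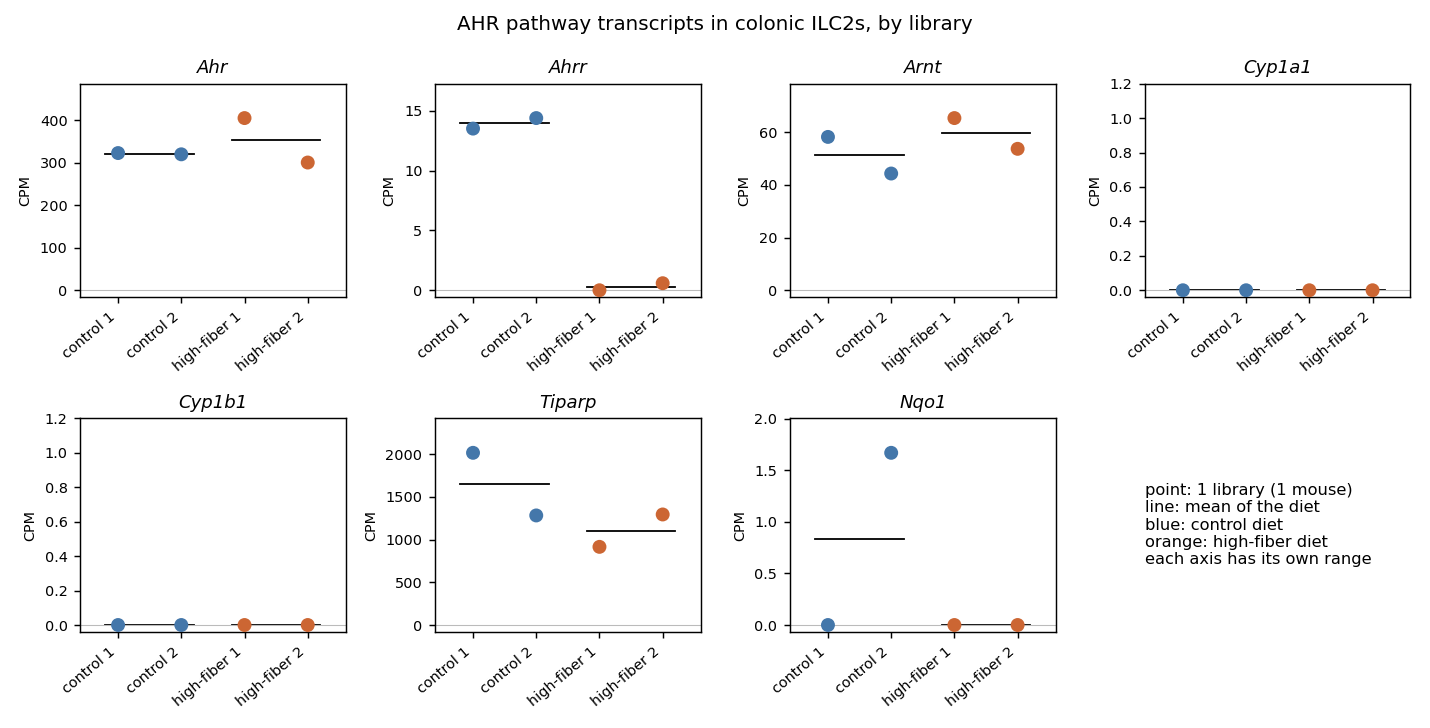
Each panel gives the CPM of 1 gene in the 4 libraries (points) with the mean of each diet (line), on an axis of its own. Ahrr is at 13.5 and 14.4 CPM on the control and at 0 and 0.59 CPM on the high-fiber diet, while the diets overlap for Ahr, Arnt and Tiparp and Cyp1a1 and Cyp1b1 are at 0 throughout.

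The other targets did not separate the diets as Ahrr did. Tiparp (NCBI gene 99929, chromosome 3 from 65528447 to 65555518) was the most abundant member, at percentile 99.2 of tested genes and at 379 and 254 CPM per kb on the control and high-fiber diets. It was at 2017 and 1283 CPM in control mice 1 and 2, against 915 and 1295 CPM in high-fiber mice 1 and 2. Control library 2 and high-fiber library 2 were thus nearly equal, and the groups overlapped. The log2 fold change was -0.58 ± 0.30, and it lay between -0.87 and -0.21 when edgeR was run without 1 library.

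Cyp1a1 (chromosome 9 from 57687928 to 57703824) and Cyp1b1 (chromosome 17 from 79706940 to 79715061), the cytochrome genes by which AHR activity is usually read, held 0 counts in all 4 libraries. If reads were independent, each 0 would allow up to 3 counts, a level of 0.099 to 0.147 CPM by library. No diet difference in these genes was detectable at this depth. Nqo1 (chromosome 8 from 107388225 to 107403205), a quinone reductase that NRF2 also controls, held 35 counts in control library 2, or 1.67 CPM, and 0 in the other libraries. It did not pass the filter, and 1 library carried its whole signal.

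Set against the receptor within each library, Ahrr held 41.8 and 44.9 counts per 1000 Ahr counts on the control diet and 0 and 1.96 on the high-fiber diet. Per 1000 Tiparp counts it held 6.70 and 11.2 on the control diet and 0 and 0.45 on the high-fiber diet. Tiparp counts per Ahr count, in contrast, were 6.24 and 4.01 in the control and 2.26 and 4.30 in the high-fiber libraries, with overlap. The ratio of Tiparp to Ahr did not keep the diets apart. Both Ahrr ratios did, but they reuse the Ahrr counts, already far apart between the diets, and add no separate result.

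Tiparp is also switched on by signals other than AHR, and immediate early genes, which answer stimulation within minutes, are given beside it. In a list of 11 such genes, chosen after results were seen, the log2 fold change was negative for all 11, with a median of -1.13 against -0.016 over all tested genes. By edgeR 0 of the 11 were called. In 9 of the 11 both high-fiber libraries lay below both control libraries, where 19.6% of all tested genes did. Fos, an AP-1 subunit, was at 6405 and 6023 CPM in control mice and 3153 and 2422 CPM in high-fiber mice. Their part in the levels of Tiparp or Ahrr was not tested.

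No tested gene next to Ahrr was called different between the diets by edgeR, which did not call Ahrr either (adjusted p = 0.358). That test called 0.0338% of all tested genes, so a missing call does not set Ahrr apart from its neighbours. Exoc3, an exocyst subunit whose gene ends 1086 bases from Ahrr, was at 166 and 185 CPM in control mice and 139 and 181 CPM in high-fiber mice. Pdcd6, a calcium-binding protein gene 10790 bases from the other end, was at 220 and 251 CPM and at 238 and 268 CPM. Log2 fold changes by edgeR were -0.14 ± 0.24 for Exoc3, 0.10 ± 0.21 for Pdcd6, -0.10 ± 0.22 for Sdha and 0.55 ± 0.28 for Ccdc127. None of these 4 passed (adjusted p from 0.667 to 0.949), and a p above the threshold does not show equal levels. Slc9a3, the sodium-proton exchanger of gut epithelium, held 0 counts in every library, and Gm41003, the third neighbour on that side, was not analysed here.

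**Figure D3:**
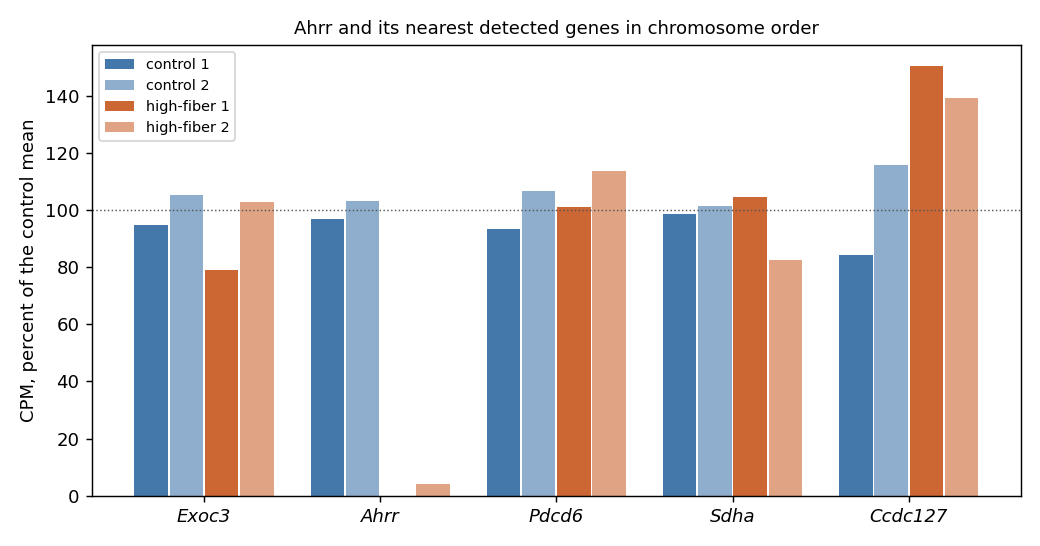
Bars give the CPM of Ahrr and its 4 nearest detected genes in each library as a percent of the gene's control mean (dotted line at 100), in chromosome order. Ahrr is at 0 and 4.22% in the high-fiber libraries, while its neighbours lie between 79.0% and 150% there.

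The tested genes with the pattern most like Ahrr over the 4 libraries were Fam71a, Prss36, Sorbs3, Abcc8 and Tgfa. Likeness was the root mean square difference of log2 CPM centred on each gene's mean, which ran from 0.74 for Fam71a to 0.96 for Tgfa, with a median of 3.19 over all tested genes. Sorbs3, the adaptor protein vinexin, was at 6.39 and 6.19 CPM in control mice and 0.069 and 0.20 CPM in high-fiber mice. Tgfa, an epidermal growth factor receptor ligand, was at 6.75 and 3.0 CPM and at 0 and 0.69 CPM. Abcc8, the sulfonylurea receptor, was at 2.88 and 8.15 CPM and at 0 and 0.64 CPM. All 5 were low transcripts that were selected for resembling Ahrr, so their levels are a description.

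**Figure D4:**
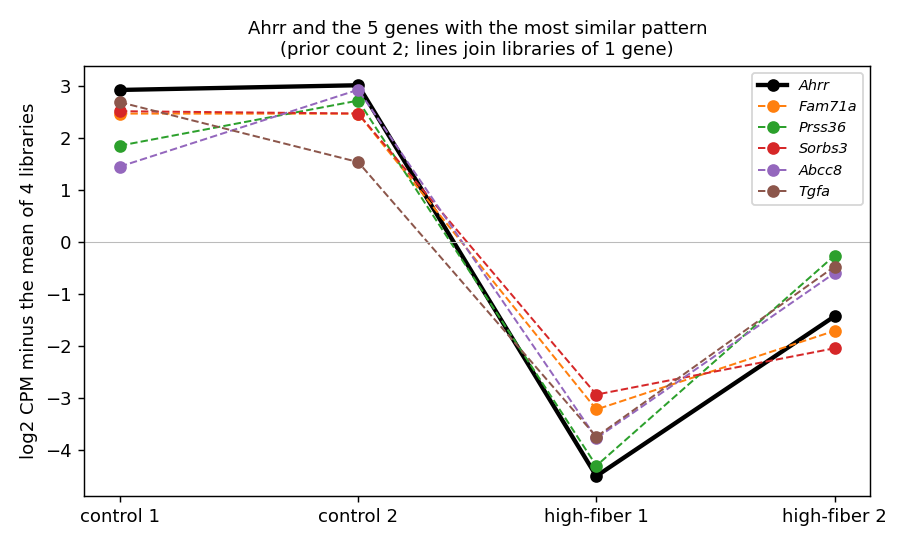
Lines join the log2 CPM of a gene (prior count of 2) in the 4 libraries, centred on its own mean. Ahrr (thick line) and the 5 most similar genes lie above 0 in both control and below 0 in both high-fiber libraries.

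The rest of the pathway was read from 6 lists with 73 genes, of which 57 were tested. By edgeR 1 of them rose, Il17a, and 0 fell, where 0.0338% of all tested genes rose and 0% fell. At an unadjusted p under 0.05, 6 were higher and 0 lower, where 4.7% and 4.1% of all tested genes were. The groups did not overlap for 14 higher and 13 lower genes of the 57, beside 18.5% and 19.6% of all tested genes. The lists' median log2 fold change together was -0.11, against -0.016 over all tested genes. The lists were chosen with earlier results of these data known. The call of Il17a and these counts are therefore a description, not a test of enrichment.

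Among 18 chaperone and cofactor genes, all tested, 0 rose and 0 fell, with a median log2 fold change of -0.078. Hsp90ab1, the main cytosolic HSP90 transcript here, was at 2120 and 3969 CPM and at 2937 and 2712 CPM, with overlap. Ncoa3, a coactivator of nuclear receptors and AHR, had the smallest p of the list, at 31.7 and 28.9 CPM in control mice and 83.2 and 46.9 CPM in high-fiber mice (1.11 ± 0.37, adjusted p = 0.459). Hdac5, a histone deacetylase and corepressor of AHRR, was at 7.78 and 16.2 CPM and at 5.37 and 1.82 CPM (-1.59 ± 0.78, adjusted p = 0.651). The values for the next 2 were -0.92 for Cul4b, the scaffold of a ubiquitin ligase that AHR can join, and 0.48 for the acetyltransferase gene Crebbp.

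Among 6 relatives of AHR and ARNT with the same bHLH-PAS fold, 5 were tested and 0 passed. Hif1a, the oxygen-sensing factor that also pairs with ARNT, was at 325 and 222 CPM in control mice and 838 and 431 CPM in high-fiber mice. Both high-fiber libraries were higher, with a log2 fold change of 1.21 ± 0.36 (adjusted p = 0.447 by edgeR and 0.0442 by DESeq2). Epas1, which encodes HIF-2 alpha, had a log2 fold change of 0.10 ± 0.25. The clock genes Npas2 (-1.24 ± 0.83) and Clock (-0.59 ± 0.46) were the other 2 of smallest p.

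Of 13 further xenobiotic target genes 6 held 0 counts throughout, among them Cyp1a2 and the glutathione transferase genes Gsta1 and Gsta2. None of the 7 tested passed, and 5 were negative, where 51.2% of all tested genes were. The median log2 fold change of the list was -0.19. Socs2, a cytokine signalling inhibitor, was at 349 and 310 CPM in control mice and 245 and 281 CPM in high-fiber mice (-0.33 ± 0.21, adjusted p = 0.743). Nfe2l2, which encodes NRF2, had a log2 fold change of -0.34 ± 0.25. The actin-severing protein gene Scin (1.88 ± 1.51) and the protease inhibitor gene Serpinb2 (-0.73 ± 0.77) completed the 4 of smallest p. The Scin mean on the high-fiber diet rested on 1 library, at 6.82 CPM against 0.14 CPM in the other. Aldh3a1, an aldehyde dehydrogenase of the AHR battery, was at 15.8 and 15.7 CPM and at 22.1 and 4.42 CPM, an example chosen after its values were seen.

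Among 11 AHR-responsive genes of lymphocytes 8 were tested and 1 rose. Il17a, the type 3 cytokine gene, was at 1.16 and 1.57 CPM in control mice and 76.5 and 95.2 CPM in high-fiber mice (6.00 ± 0.48, adjusted p = 0.0306). edgeR lost this call without any 1 of the 4 libraries, with no filter on low counts, with its older fit (legacy=TRUE) and with the replicate block, and limma-voom did not make it. DESeq2 made it on all 4 libraries and without each of them. Kit, the stem cell factor receptor that AHR sustains in ILC3s, was at 273 and 212 CPM and at 666 and 379 CPM (1.11 ± 0.32, adjusted p = 0.447 by edgeR and 0.0405 by DESeq2). The DESeq2 calls of Kit and Hif1a were lost without control library 1, control library 2 or high-fiber library 1. Gpr15, a colon-homing receptor, was at 1.99 and 2.00 CPM in control mice and 1.49 and 0 CPM in high-fiber mice (-1.20 ± 1.14). Notch2 had a log2 fold change of -0.63 ± 0.39. Il22, the AHR-dependent cytokine of ILC3s, held 0 counts in all 4 libraries, as did Ido1 and Il21.

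The list of tryptophan and ligand handling, with enzymes and transporters, gave 8 tested genes of 14, with 0 called and a median log2 fold change of -0.18. Kmo, which hydroxylates the AHR ligand kynurenine, was at 4.01 and 0.048 CPM in control mice and 47.2 and 44.1 CPM in high-fiber mice. Both high-fiber libraries exceeded both control libraries, with a log2 fold change of 4.28 ± 0.69 (adjusted p = 0.336 by edgeR and 0.00727 by DESeq2, which kept the call without each library). The other 3 of smallest p had log2 fold changes of -1.40 ± 0.83 for Haao, which acts after Kmo, -1.49 ± 1.08 for the aminotransferase gene Kyat1 and -0.84 ± 0.67 for the formamidase gene Afmid. Ido1, Ido2, Tdo2 and Il4i1, which start tryptophan breakdown, were at 0 counts in every library. Of the subunits of the tryptophan transporter, Slc3a2 stood at 1179 to 1575 CPM, and Slc7a5 at 39.0, 26.4, 50.9 and 2.65 CPM in control 1, control 2, high-fiber 1 and high-fiber 2.

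NRF2 targets, which share Nqo1 with the AHR battery, had 12 tested genes of 13, 0 called and a median of 0.15. Txn1, which encodes thioredoxin, was at 124 and 143 CPM in control mice and 181 and 261 CPM in high-fiber mice (0.73 ± 0.26, adjusted p = 0.499). Log2 fold changes were 0.54 for the glutathione reductase gene Gsr, 0.62 for the sulfiredoxin gene Srxn1 and 0.43 for the peroxiredoxin gene Prdx1. In these, as in Txn1 and Gclc, both high-fiber libraries lay above both control libraries, where 18.5% of all tested genes did. In the same list Nfe2l2, Keap1 and Txnrd1 were lower in both high-fiber libraries, where 19.6% of all tested genes were. Txnrd1, thioredoxin reductase, was at 94.7 and 108 CPM in control mice and 85.5 and 37.7 CPM in high-fiber mice.

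**Figure D5:**
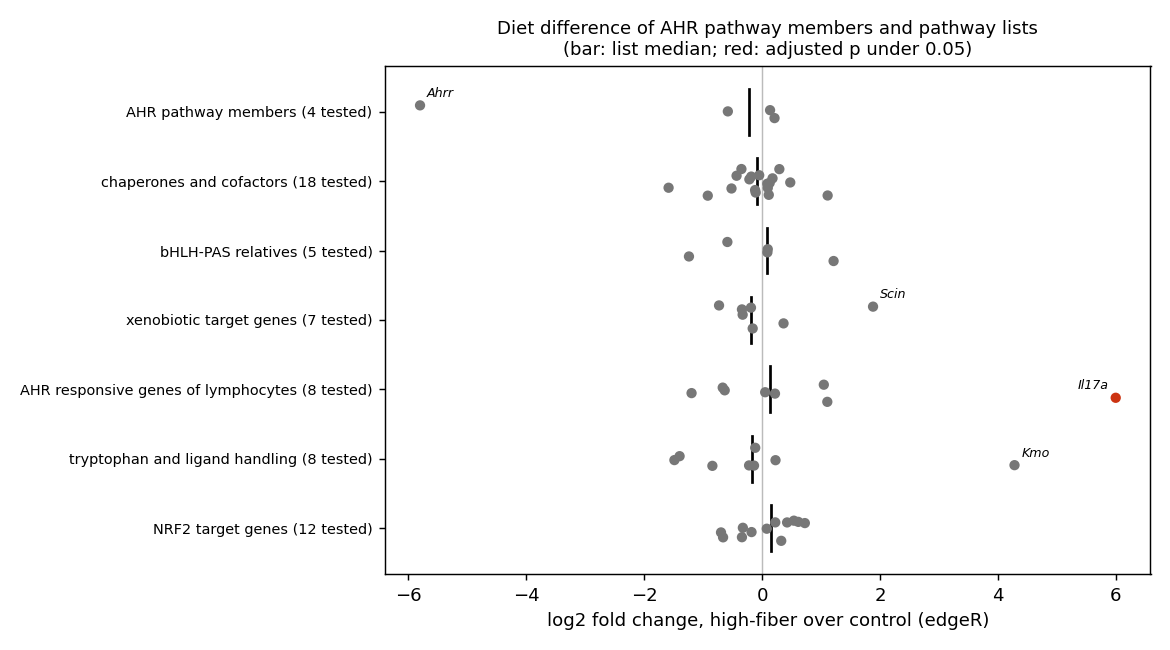
Points give the log2 fold change (high-fiber over control, edgeR) of each tested gene by list, bars the list medians, and red an adjusted p under 0.05. Ahrr lies at -5.80, Il17a at 6.00 and Kmo at 4.28, while the list medians lie between -0.22 and 0.15.

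The summed levels of markers of other cell types stand beside the Ahrr result. The 8 ILC3 markers summed to 1317 and 1421 CPM in control mice and 1208 and 1213 CPM in high-fiber mice, with Il23r, Il22 and Ccr6 at 0 throughout. Most of each sum was Tmem176a, Tmem176b and Tnfsf11, at 407, 547 and 346 CPM in control library 1. There Ncr1 and Il1r1 were at 10.9 and 6.69 CPM, their highest levels in any library. The 12 epithelial markers summed to 31.0 to 42.4 CPM, with 8 at 0 throughout, among them Krt8, Vil1 and Cdh1. The 10 stromal and endothelial markers summed to 42.2 to 64.5 CPM. The 10 macrophage and dendritic cell markers summed to 143 and 294 CPM in control mice and 328 and 368 CPM in high-fiber mice. The 8 T cell markers summed to 168 and 197 CPM and to 252 and 309 CPM, most of it Cd3g, at 143 and 171 CPM and at 244 and 289 CPM. The other 3 tested T cell markers, Cd3e (-1.62), Cd3d (-0.52) and Trac (-0.85), had negative log2 fold changes, and the median of the 4 was -0.69. The 7 B and plasma cell markers had the widest range, with 132 and 11.6 CPM in control and 303 and 1171 CPM in high-fiber mice. Where sums differed between diets, their part in the Ahrr result was not tested.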

How the data were processed

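The authors deposited whole-number read counts per NCBI gene identifier and library, not normalized. CASAVA 1.8.2, STAR 2.3.0 and mm10 are named in the submitters' processing notes, and libraries were made with a SMARTer ultra-low-input kit per the labels' protocols. Which program counted the reads, and whether it used strand, was not given in the sources used here. Identifiers were matched to RefSeq symbols of GRCm38.p6 (25275 of 27179), and exon lengths came from GENCODE M21, on the same assembly.

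The analysis ran in edgeR 4.0.16 (R 4.3.3): filterByExpr, TMM scaling, a model of diet, glmQLFit with legacy=FALSE, glmQLFTest, and Benjamini-Hochberg adjustment over 11841 genes at 0.05. Residual degrees of freedom were 2, and the coefficient of variation common to all genes was 0.607. CPM used TMM-scaled library sizes. A count of 0 was taken to allow up to 3 counts, which holds only if reads are independent. The test was checked on simulated data.

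The members and lists were chosen with earlier results of these data known. Named genes were the members, called genes of each pathway list or else the 4 of smallest p, the 5 genes most like Ahrr, and 3 neighbours on each side; others were chosen after their values were seen. A gene of the chaperone list counts in that list but is not reported here by itself. Alternatives were other scaling, other filters, DESeq2 1.42.0, limma-voom 3.58.1, other edgeR settings, a replicate block and each library left out. DESeq2 without each library was added after seeing the data.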

Additional observations from a re-analysis of the deposited data

How the results depend on the processing

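The Ahrr log2 fold change was negative in all 18 alternatives, from -11.54 to -4.52, and it was called in 3 of them, all by DESeq2. The most negative value came without high-fiber library 2, where the remaining high-fiber count was 0, and is no measure of size. Tiparp was negative (-0.87 to -0.20) and Arnt positive (0.03 to 0.44) in all 18, with 0 calls. Ahr turned negative without high-fiber library 1, to -0.070 with edgeR, where leaving out a library gave -0.070 to 0.33, and to -0.064 with DESeq2.

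The number of genes called over the whole table was 4, and 1 in the pathway lists. It was 0 and 0 with no filter on low counts, with limma-voom, with legacy=TRUE and with the replicate block. It was 9 and 1 with at least 5 CPM in 2 libraries, and 238 and 4 with DESeq2. Leaving out each library gave 0 to 1 genes and 0 pathway genes with edgeR, and 151, 109, 755 and 191 genes and 2 to 5 pathway genes with DESeq2 (without control 1, control 2, high-fiber 1 and high-fiber 2). Fewer samples enter these fits, and otherwise the cause was not tested. Nothing in the labels pairs libraries of the same number, although number 1 was the deeper on both diets. Their deviations from the diet means had a correlation of 0.041 over genes, so the block was not used for the values above.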
